A study of Homo sapiens with 16 samples.

Results

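The ETS family of transcription factors was followed in human embryonic stem cells through 9 of its genes: ETS1, ETS2, ETV1, ETV4, ETV5, ELF1, ELK1, ERF and GABPA. They are 9 of 60675 gene identifiers in the deposited count table and 9 of 28 human ETS genes. They were picked with earlier results of these libraries known, from cells given SALL4 or SEPHS1 siRNA above all, so those comparisons are described here without a test. The cells were H9, an established human embryonic stem cell line grown without feeder cells on Matrigel, and every group carried an EGFP reporter under the REX1 promoter. Pools of 30 to 50 nM siRNA targeted SALL4 or VRTN, with harvest at 48 h, or DSCC1 or SEPHS1, with harvest at 72 h (3 libraries each). The references were 2 libraries given an siRNA named Control and 2 given an siRNA against Renilla luciferase, named Luciferase. The labels give no harvest time for these 4 control libraries, so against them a knockdown and its time cannot be told apart. The pools against SALL4, DSCC1, SEPHS1 and luciferase were esiRNAs, while the VRTN siRNA came from another maker. The labels call the samples biological replicates, all of 1 cell line, and p-values here measure only the spread between them. Each library is 1 bulk sample, in which fewer cells of a type and less RNA per cell cannot be told apart.

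ETS factors share a winged helix-turn-helix domain, the ETS domain, that reads a purine-rich DNA core with the letters GGAA. Most act as activators, a few as repressors, and several are switched by ERK, the kinase at the end of the FGF signalling cascade that human embryonic stem cells depend on in culture. ETV1, ETV4 and ETV5 form the PEA3 subfamily and are classic FGF-responsive genes. ERF is a repressor that ERK expels from the nucleus, ELK1 works with serum response factor at early response genes, and GABPA pairs with GABPB proteins at many housekeeping and mitochondrial promoters.

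The letters these proteins read can be shown at promoters of genes described below. The 250 bases before annotated starts in RefSeq (GRCh38.p14) were searched on both strands for the 7-base word CCGGAAG, whose reverse complement is CTTCCGG. It was present in 8.5% of 35116 promoter windows, whereas the 4-base core GGAA (reverse complement TTCC), which lies inside the longer word, was present in 92.7%. Among the 9 genes, 6 had an entry in the promoter table, with 16 windows in all, and 1 window, that of GABPA, held the longer word. ETS1, ETV4 and ETV5 had no entry. Counted by gene among those with an entry, the word was also held by 2 of 16 other ETS genes, 0 of 10 partner genes, 2 of 5 listed GABPA targets, 1 of 7 early response genes and 1 of 11 ERK feedback genes. These 5 stretches are printed as examples of the word in its setting, 5′ to 3′ on the strand of the gene, with the word in capitals. A match is a description of letters, not of a bound site.
GABPA, chr21:25734891-25734927, plus strand: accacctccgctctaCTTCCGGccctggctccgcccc
TFB1M, chr6:155314548-155314584, minus strand: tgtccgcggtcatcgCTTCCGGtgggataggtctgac
COX5B, chr2:97646010-97646046, plus strand: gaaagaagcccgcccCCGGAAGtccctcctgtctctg
IER2, chr19:13150369-13150405, plus strand: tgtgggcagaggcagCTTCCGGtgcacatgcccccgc
SPRY1, chr4:123398304-123398340, plus strand: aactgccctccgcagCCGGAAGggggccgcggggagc
The word began 66 bases before the start of GABPA, 85 before TFB1M, 37 before COX5B, 27 before IER2 and 67 before the downstream one of 2 listed starts of SPRY1, whose other window does not hold it. In COX5B and SPRY1 it read CCGGAAG on the strand of the gene, and in the other 3 it lay on the opposite strand.

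Levels below are TMM-scaled CPM, the counts of a gene per unit of library depth, from libraries of 18597262 to 28662389 counts, and changes are log2 fold changes of each knockdown against the mean of both control groups, with the standard error (SE). A gene was called at an adjusted p under 0.05 in edgeR's quasi-likelihood test, the p-values being adjusted by Benjamini-Hochberg over the 19772 genes tested. The targeted transcripts were lower in their own libraries, to different extents. SALL4 stood at 193 to 235 CPM after SALL4 siRNA and at 243 to 303 CPM in the controls, which was not called (adjusted p = 0.0562). VRTN stood at 19.3 to 23.7 CPM after its siRNA against 134 to 154 CPM in the controls. SEPHS1 stood at 49.1 to 79.3 CPM after its siRNA against 381 to 441 CPM in the controls. It was also called lower after SALL4 siRNA, at 175 to 249 CPM (log2 fold change -0.99, edgeR adjusted p = 1.13e-05). That was 50.4% of the control mean, while SALL4 itself was at 77.9% in those libraries. DSCC1 stood at 0.601 to 0.939 CPM after its siRNA against 3.30 to 5.16 CPM in the controls (adjusted p = 0.486).

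Some libraries stood apart within their groups. EGR1, an early response gene and a target of ELK1, was singled out for this after its values were seen. It stood at 516 CPM in SALL4 replicate 3 against 82.0 and 54.8 CPM in replicates 1 and 2, and at 475 CPM in VRTN replicate 3 against 181 and 201 CPM in replicates 1 and 2. In the controls it stood at 398 and 414 CPM in replicate 2 of Control and Luciferase, and at 173 and 189 CPM in their replicate 1. All 6 libraries harvested at 72 h lay between 501 and 561 CPM. The part of this split in the results below was not tested. For called genes of the ETS family and of the partner and target lists, changes at 48 h are also given without replicate 3.

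Markers of the labelled cell type were present in every library. The summed level of 8 pluripotency genes was 2410 to 2840 CPM after SALL4 siRNA, 3410 to 3620 CPM after VRTN siRNA, 3350 to 3450 CPM after DSCC1 siRNA and 3490 to 3560 CPM after SEPHS1 siRNA, against 2840 to 3510 CPM in the controls. The lower sum after SALL4 siRNA came mainly from DNMT3B, a de novo DNA methyltransferase, at 397, 378 and 601 CPM against 964 to 1340 CPM in the controls. Without it, a split made after the values were seen, the sum was 2010 to 2240 CPM after SALL4 siRNA and 1880 to 2170 CPM in the controls. The genes left did not move alike. TDGF1 had 182, 213 and 289 CPM after SALL4 siRNA against 258 to 337 CPM in the controls. NANOG had 158, 143 and 76.1 CPM against 73.1 to 98.2 CPM. POU5F1 had 234.5, 242.7 and 233.9 CPM against 188.5 to 207.5 CPM. ZFP42, the REX1 gene itself, was at 0 in all 16 libraries. Trophoblast markers summed to at most 7.72 CPM and neural markers to at most 10.5 CPM in any library. Of 7 endothelial and blood markers, KDR carried most of the signal. It had 147, 140 and 56.8 CPM after SALL4 siRNA and 53.8 to 69.0 CPM in the controls. That rise was called (log2 fold change 0.91, edgeR adjusted p = 0.00743), although SALL4 replicate 3 lay within the controls. TEK ran from 3.80 to 15.45 CPM over all libraries, while PECAM1 and CDH5 stayed at or below 1.39 CPM. Mesenchymal markers summed to 1800 to 2820 CPM after SALL4 siRNA, 1220 to 1750 CPM after VRTN siRNA, 2350 to 2680 CPM after DSCC1 siRNA and 1820 to 2060 CPM after SEPHS1 siRNA, against 2110 to 2780 CPM in the controls. Within that sum COL1A1, a collagen gene, had 1250, 1069 and 479 CPM after SALL4 siRNA and 733, 808 and 494 CPM after VRTN siRNA, against 1534 to 1760 CPM in the controls. The part of these markers in the ETS values was not tested.

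In control cells the 9 genes lay in the upper and middle range of the family. Scaled by exon length, ETV4 was the most abundant ETS gene at 73.9 CPM per kb, followed by ERF at 23.1, ELK1 at 13.8, ETS2 at 6.24 and ETV1 at 4.12 CPM per kb. ETV5 stood at 2.99 and ETS1 at 2.06 CPM per kb, and ELF1 and GABPA were lowest at 0.757 and 0.616 CPM per kb. Of the 19 ETS genes outside the 9, ETV6, a repressor, was the most abundant at 4.04 CPM per kb, close to ETV1. In all, 8 of these 19 averaged 1 CPM or more over the 16 libraries and 5 were at 0 in every library. ERG and FLI1, factors of blood and endothelium, were near 0 at 0.0168 and 0.0105 CPM per kb.

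**Figure D1:**
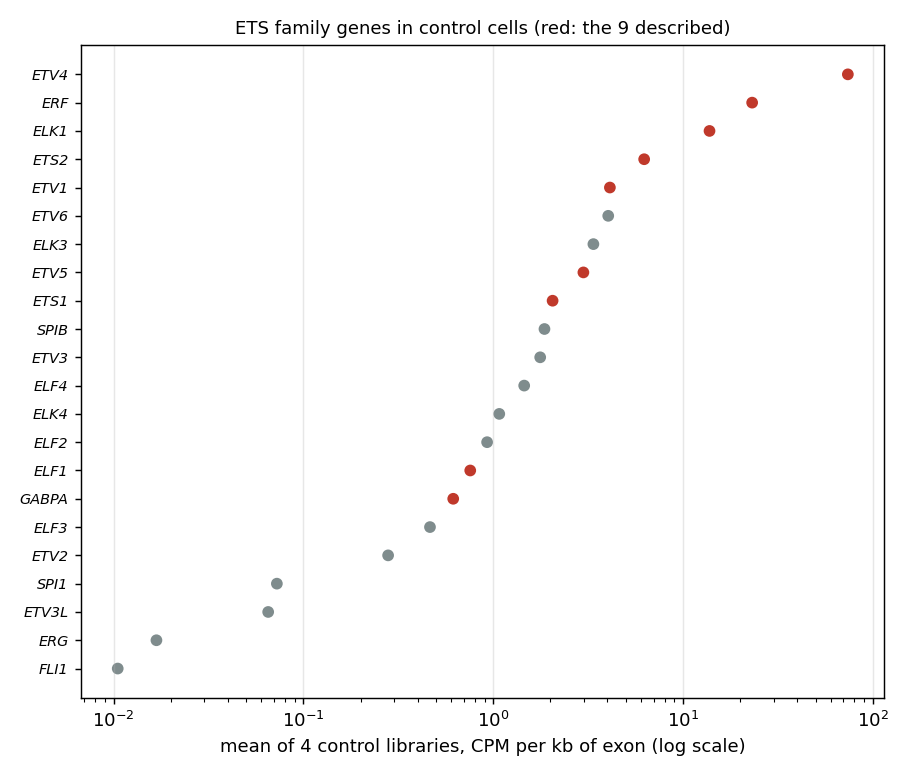
Mean level of ETS family genes in the 4 control libraries, in CPM per kb of exon on a log axis, with the 9 described genes in red and the others in grey; 6 genes at 0 in the controls are not drawn. ETV4 lies furthest right at 73.9 CPM per kb and FLI1 furthest left at 0.0105.

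ETS1 varied most among the 9 genes. It encodes the founding member of the family, a factor with a Pointed domain that ERK signalling reaches, best known in lymphocytes, endothelium and invasive cells, and it lies at chr11:128458761-128587558 on the minus strand (GENCODE 29, GRCh38). After SALL4 siRNA it stood at 33.5, 38.4 and 46.5 CPM, and after VRTN siRNA at 16.6, 16.3 and 12.3 CPM. After DSCC1 siRNA it stood at 18.9, 18.8 and 20.4 CPM, and after SEPHS1 siRNA at 10.3, 6.91 and 3.74 CPM. The Control libraries had 10.5 and 17.7 CPM and the Luciferase libraries 12.9 and 17.7 CPM. All SALL4 siRNA libraries were above every library of the other groups, and all SEPHS1 siRNA libraries were below them, the lowest Control library at 10.5 CPM being only just above the highest SEPHS1 siRNA library. The spread of ETS1 was not the same in both directions: SALL4 siRNA cells averaged 39.5 ± 6.55 CPM and SEPHS1 siRNA cells 6.97 ± 3.27 CPM (SD, n = 3 each), and controls 14.7 ± 3.59 CPM (SD, n = 4).

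In mean CPM ETS1 was at 269% of the control level after SALL4 siRNA and at 47.5% after SEPHS1 siRNA. The fitted log2 fold changes were 1.43 (SE 0.24) and -1.07 (SE 0.26). These values chose the gene and carry no test. Between groups harvested at the same time it was 1.39 (SE 0.26) for SALL4 against VRTN siRNA at 48 h. For SEPHS1 against DSCC1 siRNA at 72 h it was -1.47 (SE 0.27), with ETS1 in the DSCC1 siRNA libraries above the controls. Both use the SALL4 or SEPHS1 siRNA libraries that chose the gene and carry no test either. The SALL4 and VRTN siRNAs also came from different makers. VIM, the vimentin gene among the mesenchymal markers, lay on the same sides of the controls. It had 1169, 1102 and 1037 CPM after SALL4 siRNA and 305, 290 and 254 CPM after SEPHS1 siRNA, against 640 and 316 CPM with Control siRNA and 757 and 319 CPM with Luciferase siRNA. VIM was singled out after its values were seen, and its relation to ETS1 was not tested. Replicate 2 of both control groups lay close above its SEPHS1 siRNA libraries. The mesenchymal list did not move together. COL1A1 changed by -0.82 after SALL4 and -0.25 after SEPHS1 siRNA, and THY1 by 0.41 and 0.05. PDGFRB had the same signs as VIM, 0.28 and -1.42, but its groups overlapped the controls. COL3A1 and TWIST1 averaged under 1 CPM in both. Replicate 1 and replicate 2 of the controls gave ETS1 changes of different sizes. Against replicate 1 alone the log2 fold change was 1.76 for SALL4 siRNA and -0.74 for SEPHS1 siRNA, and against replicate 2 alone it was 1.16 and -1.34. Without SALL4 replicate 3 the SALL4 value was 1.30.

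ETV4 showed the other clear pattern. It encodes a PEA3 factor downstream of FGF receptors and lies at chr17:43527844-43579620 on the minus strand. It had 177, 155 and 194 CPM after SALL4 siRNA and 197, 194 and 141 CPM after VRTN siRNA. It had 246, 261 and 276 CPM after DSCC1 siRNA and 275, 274 and 273 CPM after SEPHS1 siRNA, while the controls had 266 and 256 CPM with Control siRNA and 260 and 285 CPM with Luciferase siRNA. The 6 libraries harvested at 48 h, at 141 to 197 CPM, did not overlap the 6 harvested at 72 h, at 246 to 276 CPM, or the controls, at 256 to 285 CPM. Both 48 h knockdowns were lower to a similar degree, at 65.7% of control after SALL4 siRNA and 66.7% after VRTN siRNA, and they differed from each other by -0.02 (SE 0.12) on the log2 scale with a 95% interval of -0.27 to 0.23. At 48 h no library of a control siRNA was labelled, so the harvest time, the siRNA and the 2 targets cannot be told apart for ETV4.

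**Figure D2:**
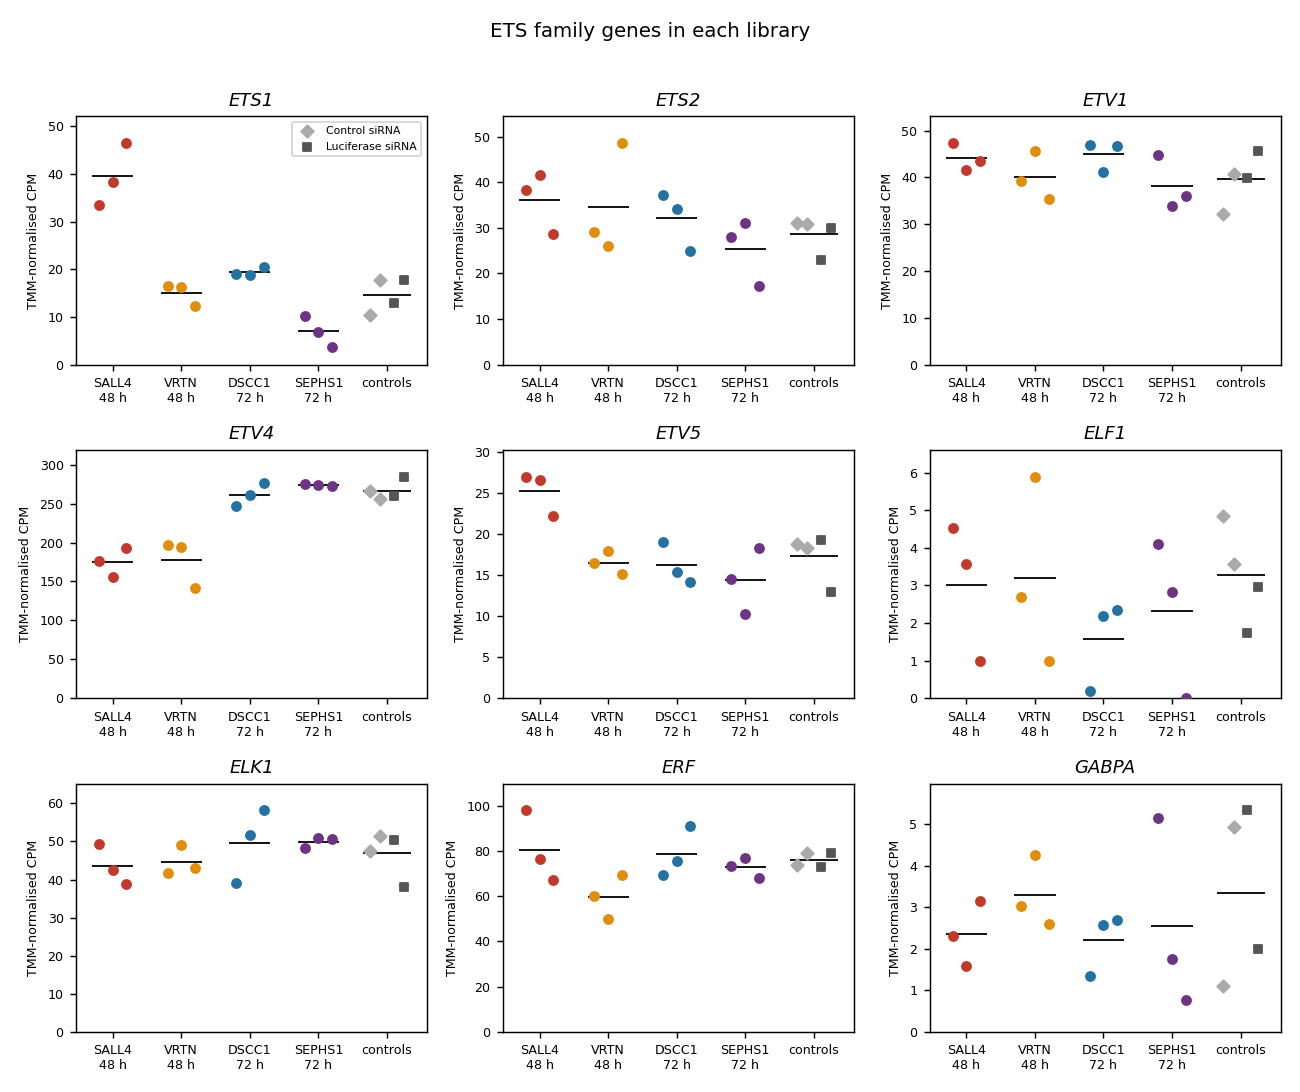
Level of each of the 9 ETS genes in every library, in TMM-normalised CPM from 0; circles are knockdown libraries, diamonds Control and squares Luciferase, and the bar is the mean of the group (of all 4 libraries for the controls). ETS1 is highest in the SALL4 siRNA libraries, at 33.5 to 46.5 CPM, and lowest in the SEPHS1 siRNA libraries, at 3.74 to 10.3 CPM, and ETV4 is lower in the 6 libraries of 48 h than in the others.

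After VRTN siRNA, 1 of the 9 genes was called, ETV4, which fell, beside 1.13% of the 19772 genes tested. The 4 control libraries are those of the SALL4 and SEPHS1 comparisons that chose the genes, so this call is not independent of the choice. Their harvest time is not labelled. VRTN encodes vertnin, a DNA-binding protein known for setting vertebra number in pigs. ETV4 averaged 178 ± 31.5 CPM after VRTN siRNA (SD, n = 3) and 266 ± 13.0 CPM in the controls (SD, n = 4), a log2 fold change of -0.58 (SE 0.12, edgeR adjusted p = 0.00404), and DESeq2 gave an adjusted p of 4.28e-05. Without VRTN replicate 3 the change was -0.44 and was not called (adjusted p = 0.068), and against Control siRNA alone it was at the threshold (-0.55, adjusted p = 0.05). ERF, at chr19:42247572-42255157 on the minus strand, was the only other gene of the 9 whose VRTN siRNA libraries all lay outside the control range, as 12% of genes tested did. It had 60.2, 49.9 and 69.3 CPM after VRTN siRNA, against 73.8 and 79.1 CPM with Control siRNA and 73.0 and 79.0 CPM with Luciferase siRNA. Its log2 fold change of -0.35 (SE 0.14) did not pass the test over all genes (unadjusted p = 0.0188, edgeR adjusted p = 0.373). The median log2 fold change of the 9 genes was -0.02, against 0.02 over all genes tested.

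After DSCC1 siRNA none of the 9 genes was called by edgeR, none had an unadjusted p under 0.05, and DESeq2 called 0 with 7 left without an adjusted p. The background there was 0.0455%, or 9 genes of 19772. DSCC1 encodes a subunit of the clamp loader that acts in sister chromatid cohesion. ETS1 was the only gene of the 9 whose libraries did not overlap the controls, lying above them as printed above, and 9.1% of genes tested did not overlap. Its log2 fold change was 0.40 (SE 0.24, 95% interval -0.10 to 0.90, edgeR adjusted p = 0.85), and against replicate 2 of the controls alone it was 0.13. ETV4 differed by -0.03 (SE 0.11), with a 95% interval of -0.26 to 0.20. The median over the 9 genes was 0.05, against 0.002 over all genes tested.

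**Figure D3:**
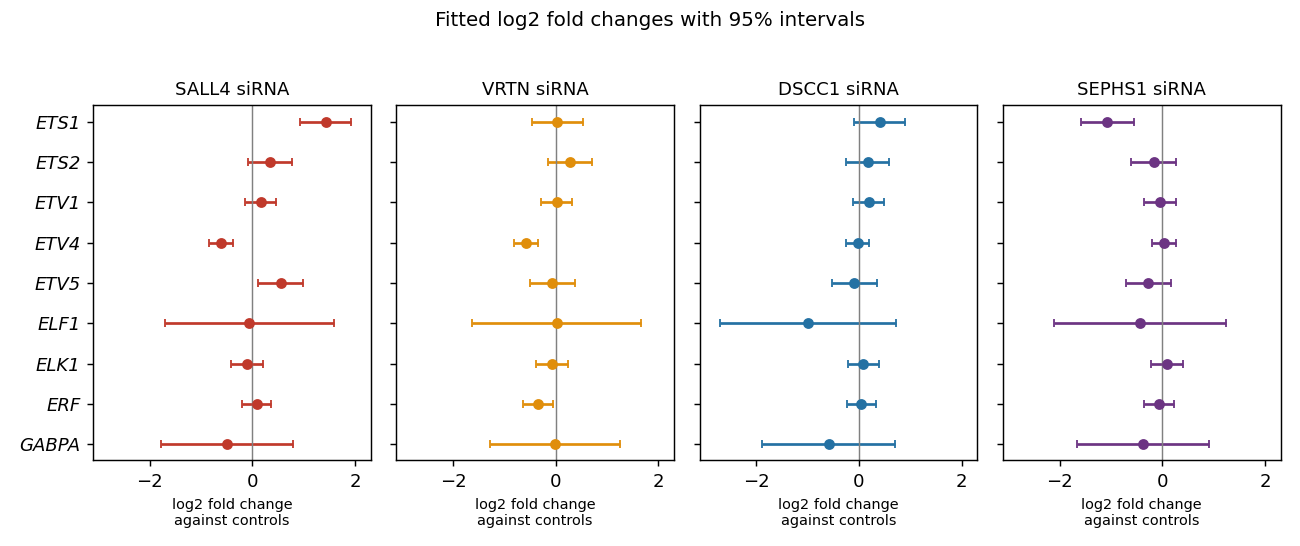
Log2 fold change of each of the 9 genes in each knockdown against the mean of both control groups, with 95% intervals from the edgeR fit; the vertical line is no change. ETS1 stands at 1.43 after SALL4 siRNA and -1.07 after SEPHS1 siRNA, ETV4 at -0.61 and -0.58 after SALL4 and VRTN siRNA, and the intervals of ELF1 and GABPA are several times wider than the others.

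After SALL4 siRNA 2.98% of all genes tested were called, and no call is given for the 9 genes. The groups did not overlap for 3 of the 9, ETS1 and ETV5 above and ETV4 below, and for 13.7% of genes tested. Because the genes were chosen on this comparison, these counts are a description and no test of them. ETV5, the paralogue of ETV4 at chr3:186046308-186110318 on the minus strand, had 27.0, 26.7 and 22.2 CPM after SALL4 siRNA. It had 16.5, 17.99 and 15.1 CPM after VRTN siRNA, 19.1, 15.4 and 14.2 CPM after DSCC1 siRNA and 14.6, 10.2 and 18.3 CPM after SEPHS1 siRNA, while the controls had 18.8 and 18.3 CPM with Control siRNA and 19.4 and 12.9 CPM with Luciferase siRNA. The 3 SALL4 siRNA libraries were the highest of the 16. For the PEA3 genes the log2 fold change after SALL4 siRNA was 0.55 (SE 0.21) for ETV5, -0.61 (SE 0.12) for ETV4 and 0.16 (SE 0.15) for ETV1, whose groups overlapped. Without SALL4 replicate 3 it was 0.65 for ETV5 and -0.67 for ETV4.

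After SEPHS1 siRNA 1.53% of all genes tested were called, and no call is given for the 9 genes. The log2 fold change of ETS1 was -1.13 against Luciferase siRNA alone, -1.01 against Control siRNA alone and -0.86 without Control replicate 2. ETS1 was the 1 gene of the 9 whose libraries did not overlap the controls, as in 13% of genes tested. This comparison too chose the genes, and these counts are no test of them. SEPHS1 encodes a selenophosphate synthetase paralogue. The median of the 9 fold changes was -0.17, against -0.02 over all genes tested. The 95% intervals of ETS2, ETV1, ETV5, ELF1, ERF and GABPA all included 0. ETV4 differed by 0.04 (SE 0.11), with a 95% interval of -0.19 to 0.27. Without SEPHS1 replicate 3, whose ETS1 level of 3.74 CPM was the lowest of all libraries, the ETS1 value was -0.77, and without replicate 1 it was -1.45.

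The remaining genes of the 9 with ample counts varied little between groups. ETV1, the third PEA3 gene at chr7:13891228-13991425 on the minus strand, ran from 32.2 to 47.4 CPM over all 16 libraries, and every group overlapped the controls. ELK1, at chrX:47635521-47650604 on the minus strand, ran from 38.1 to 58.2 CPM, and again every group overlapped the controls. Both were steady enough that the 95% intervals of their log2 fold changes stayed between -0.41 and 0.49 in the 4 knockdowns. ERF had 98.1, 76.5 and 67.4 CPM after SALL4 siRNA, a spread wider than that of the controls on both sides.

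ETS2, the close paralogue of ETS1 at chr21:38805307-38824955 on the plus strand, had 38.2, 41.6 and 28.6 CPM after SALL4 siRNA and 28.98, 26.0 and 48.6 CPM after VRTN siRNA. It had 37.2, 34.0 and 24.99 CPM after DSCC1 siRNA and 27.9, 31.1 and 17.2 CPM after SEPHS1 siRNA, while the controls had 31.0 and 30.8 CPM with Control siRNA and 22.9 and 30.1 CPM with Luciferase siRNA. Each group overlapped the controls, and the spread within the VRTN siRNA group exceeded the whole range of the controls. For ETS2 the log2 fold change after SALL4 siRNA was 0.34 (SE 0.21), and after SEPHS1 siRNA it was -0.17 (SE 0.21).

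ELF1 and GABPA were close to the depth limit and scattered within every group. ELF1, a factor of the ELF subfamily best known in blood cells, lies at chr13:40932028-41061440 on the minus strand and was read between 0 and 141 times per library. It had 4.52, 3.56 and 0.980 CPM after SALL4 siRNA and 2.69, 5.90 and 0.987 CPM after VRTN siRNA. It had 0.185, 2.19 and 2.36 CPM after DSCC1 siRNA and 4.11, 2.82 and 0 CPM after SEPHS1 siRNA, against 4.85 and 3.57 CPM with Control siRNA and 1.75 and 2.96 CPM with Luciferase siRNA. The 0 in SEPHS1 replicate 3 allows up to 3 counts, or 0.136 CPM of the raw library total before TMM scaling, counting error only. GABPA, at chr21:25734570-25772460 on the plus strand, was read 13 to 145 times per library and ran from 0.759 to 5.14 CPM in the knockdowns, against 1.10 to 5.33 CPM in the controls. The 95% intervals of their log2 fold changes reached from -2.70 to 1.66 over the 4 knockdowns, so a change of 1 log2 unit was not detectable for them.

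Part of some values could belong to other genes, since the strand setting of the counting and its treatment of reads with several matches are not given in the sources used here. GABPA shares 413 exonic bases, 7.6% of its own, with ATP5PF on the opposite strand, which averaged 19.8 CPM, so low GABPA counts are uncertain. ETV4 shares 68 bases with DHX8 and ELF1 shares 167 with WBP4, both on the opposite strand. GABPAP, a processed copy of GABPA on chromosome 7, averaged 0.774 CPM, and ELK1P1, a copy of ELK1, had no counts. The exons of ETS1 overlap those of no other gene in the annotation used.

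Control siRNA was also set against Luciferase siRNA. None of the 9 genes was called by edgeR or DESeq2, none had an unadjusted p under 0.05, and the background was 0% of 19772 genes. The groups did not overlap for 2 of the 9, ETS2 and ELF1, both higher with Control siRNA, as for 28.3% of genes tested. The log2 fold change of Control against Luciferase was -0.12 (SE 0.32) for ETS1 and -0.06 (SE 0.15) for ETV4. With 2 libraries each, 95% intervals still spanned -0.77 to 0.54 for ETS1 and -0.36 to 0.24 for ETV4.

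The other 19 ETS genes gave few calls: 12 had enough counts to be tested. After SALL4 siRNA 1 of the 12 was called, ELF3, an epithelial factor at chr1:202007945-202017188 on the plus strand, which fell. It had 0, 0.719 and 0.895 CPM after SALL4 siRNA (0, 19 and 21 counts), against 2.37 and 4.39 CPM with Control siRNA and 2.88 and 3.72 CPM with Luciferase siRNA (61 to 129 counts). Its libraries also lay below the controls after VRTN siRNA, at 1.14, 1.88 and 0.699 CPM. The log2 fold change was -2.64 (SE 0.74, edgeR adjusted p = 0.0429) after SALL4 siRNA and -1.43 (SE 0.69, adjusted p = 0.522) after VRTN siRNA. The call after SALL4 siRNA did not survive leaving out SALL4 replicate 1 or 2 (adjusted p = 0.154 and 0.111), Control replicate 2 (0.108), Luciferase replicate 2 (0.0551) or any 1 of the DSCC1 libraries (0.0597 to 0.066), and without SALL4 replicate 3 the change was -3.21 (0.0231).

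After VRTN siRNA 1 of the 12 was called, ELK3, which rose. ELK3 is a relative of ELK1 that represses until ERK modifies it, and it lies at chr12:96194382-96269835 on the plus strand. It had 39.5, 42.6 and 21.4 CPM after VRTN siRNA and 36.8, 28.9 and 11.2 CPM after SALL4 siRNA, against 15.3 and 17.4 CPM with Control siRNA and 20.2 and 9.80 CPM with Luciferase siRNA. All VRTN siRNA libraries were above the controls, while SALL4 replicate 3 lay within them. The log2 fold change was 1.14 (SE 0.28, edgeR adjusted p = 0.0358) after VRTN siRNA and 0.71 (SE 0.28, adjusted p = 0.234) after SALL4 siRNA. The call after VRTN siRNA did not survive leaving out VRTN replicate 1 or 2 (adjusted p = 0.187 and 0.25) or any 1 of the DSCC1 libraries (0.0518 to 0.0585), and without VRTN replicate 3 the change was 1.39 (0.0133). ETV6, the highest of the 19 in mean CPM, was not called in any knockdown, at 42.5, 43.7 and 31.1 CPM after SALL4 siRNA against 22.0 to 31.6 CPM in the controls.

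Neither DSCC1 nor SEPHS1 siRNA gave a call among the 12, by edgeR or by DESeq2, which left all 19 without an adjusted p for DSCC1 and 8 for SEPHS1. An unadjusted p under 0.05 was found for 1 of them after DSCC1 siRNA and for 2 after SEPHS1 siRNA. Over all genes tested the shares with an unadjusted p under 0.05 were 5.84% and 12.8%. For calls by adjusted p, the background of the 4 comparisons is the one printed above for each.

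Genes that work with or downstream of ETS factors were taken as 4 lists. These lists were drawn up with earlier results of these libraries known. Their counts and medians beside those of all genes are therefore a description, not an independent test of the lists. Partners and regulators (12 genes, among them the GABPB subunits, SRF, the repressor CIC, the ubiquitin ligase component COP1, both ERK kinases and the coactivators EP300 and CREBBP) had no call in any of the 4 knockdowns by edgeR. Unadjusted p-values under 0.05 numbered 1 of 12 after SALL4 siRNA, 2 after VRTN siRNA, 1 after DSCC1 siRNA and 5 after SEPHS1 siRNA, where over all genes tested the shares were 13.1%, 9.4%, 5.84% and 12.8% in that order. EP300, the highest in CPM not scaled by length, ran from 253 to 316 CPM after SALL4 siRNA, 226 to 281 CPM after VRTN siRNA, 277 to 326 CPM after DSCC1 siRNA and 238 to 262 CPM after SEPHS1 siRNA, against 261 to 327 CPM in the controls. GABPA targets in the mitochondrial programme (5 genes) had no call either, with 1 unadjusted p under 0.05 in each knockdown. COX5B, a cytochrome c oxidase subunit whose promoter is printed above, had log2 fold changes of 0.38 after SALL4 siRNA, 0.22 after VRTN siRNA, 0.45 after DSCC1 siRNA and 0.38 after SEPHS1 siRNA (SE 0.16 each, edgeR adjusted p = 0.248 to 0.704). DESeq2 called no gene of these 2 lists in any of the 4 knockdowns. It could not call all of them, since some were left without an adjusted p. These were 6 partners and 4 GABPA targets for DSCC1 siRNA, and 4 and 1 for VRTN siRNA.

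The list named ERK feedback genes (15 genes) holds feedback inhibitors and also other ERK-responsive genes, such as FOSL1, CCND1, EPHA2 and EPHA4. Such genes are a usual readout of FGF and ERK activity, and PEA3 factors are among the activators of some. After SALL4 siRNA 2 of 15 were called by edgeR, both higher, where 2.98% of all genes were called, and DESeq2 called 3 of 15 and 852 genes in all. An unadjusted p under 0.05 was found for 7 of the 15, and for 13.1% of all genes tested. The list had a median log2 fold change of 0.37 against 0.02 over all genes tested. SPRY2, a feedback inhibitor of receptor tyrosine kinase signalling, had 26.6, 26.1 and 14.0 CPM after SALL4 siRNA, against 9.96 and 9.02 CPM with Control siRNA and 14.96 and 13.8 CPM with Luciferase siRNA (log2 fold change 0.93, SE 0.26, edgeR adjusted p = 0.0462). EPHA2, an ephrin receptor, had 221, 176 and 67.8 CPM after SALL4 siRNA, against 92.5 and 84.8 CPM with Control siRNA and 108 and 88.9 CPM with Luciferase siRNA (log2 fold change 0.73, SE 0.21, edgeR adjusted p = 0.0489). SALL4 replicate 3, the replicate with high EGR1, lay within the control range for SPRY2 and below it for EPHA2, and replicates 1 and 2 lay above it for both. DESeq2 did not call EPHA2 (adjusted p = 0.199). Without SALL4 replicate 1 EPHA2 stood at 0.38 (adjusted p = 0.563), and without SALL4 replicate 3 it stood at 1.10 (adjusted p = 3.06e-06). Its call did not survive leaving out SALL4 replicate 2, VRTN replicate 1 or 2, or any 1 of the DSCC1 or SEPHS1 libraries either (adjusted p = 0.051 to 0.247). SPRY2 was not called without SALL4 replicate 1 (adjusted p = 0.275), SALL4 replicate 2 (0.249), Luciferase replicate 2 (0.0793), Control replicate 2 (0.0921), DSCC1 replicate 3 (0.0546), VRTN replicate 1 (0.0515) or VRTN replicate 2 (0.0578), and without SALL4 replicate 3 it stood at 1.19 (0.00462).

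After VRTN siRNA 4 of the 15 were called, 2 higher and 2 lower, where 1.13% of all genes were called. An unadjusted p under 0.05 was found for 10 of the 15, and for 9.4% of all genes tested. The list median was 0.21 against 0.02 over all genes tested. DUSP6, an ERK phosphatase at chr12:89347232-89353271 on the minus strand, rose to 93.3, 92.0 and 65.3 CPM after VRTN siRNA, against 61.9 and 29.8 CPM with Control siRNA and 37.0 and 23.0 CPM with Luciferase siRNA. Its log2 fold change was 1.17 (SE 0.20, edgeR adjusted p = 0.000857). Against Control siRNA alone it was 0.86 (adjusted p = 0.14), against replicate 1 of the controls alone 0.75 (adjusted p = 0.128), and without VRTN replicate 3 it was 1.32 (adjusted p = 0.000593). IL17RD, a membrane inhibitor of FGF signalling at chr3:57089982-57170306 on the minus strand, rose to 104, 99.4 and 66.8 CPM after VRTN siRNA, against 42.7 and 35.8 CPM with Control siRNA and 47.9 and 36.7 CPM with Luciferase siRNA. Its log2 fold change was 1.14 (SE 0.19, edgeR adjusted p = 0.000733), and it was 1.32 (adjusted p = 0.000282) without VRTN replicate 3.

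The other 2 called genes fell after VRTN siRNA. CCND1, cyclin D1, at chr11:69641087-69654474 on the plus strand, had 74.1, 72.7 and 40.7 CPM after VRTN siRNA, against 124 and 111 CPM with Control siRNA and 126 and 117 CPM with Luciferase siRNA (log2 fold change -0.94, SE 0.16, edgeR adjusted p = 0.00124). Without VRTN replicate 3 it stood at -0.70 (adjusted p = 0.0183). DUSP5, a nuclear ERK phosphatase, had 32.5, 34.1 and 18.1 CPM after VRTN siRNA, against 74.5 and 38.5 CPM with Control siRNA and 77.4 and 48.0 CPM with Luciferase siRNA (log2 fold change -1.08, SE 0.27, edgeR adjusted p = 0.0378). The DUSP5 call was lost by DESeq2 (adjusted p = 0.124), against replicate 2 of the controls alone (log2 fold change -0.62, adjusted p = 0.504) and without any 1 of the VRTN libraries (0.0712 to 0.289), DSCC1 libraries (0.0603 to 0.0663) or SEPHS1 replicate 2 (0.0619). After SALL4 siRNA the values of CCND1 were 179, 175 and 108 CPM, the opposite side of the controls for replicates 1 and 2, with a log2 fold change of 0.37 that was not called (SE 0.16, adjusted p = 0.297).

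SPRY4 was the highest feedback gene in CPM not scaled by length. It had 509, 418 and 253 CPM after SALL4 siRNA and 398, 411 and 246 CPM after VRTN siRNA. It had 250, 244 and 233 CPM after DSCC1 siRNA and 240, 229 and 229 CPM after SEPHS1 siRNA, while the controls had 363 and 273 CPM with Control siRNA and 329 and 251 CPM with Luciferase siRNA. It was not called in any knockdown, and replicate 3 of both 48 h groups lay nearer to the 72 h libraries and replicate 2 of the controls than to their own group's other replicates. None of the 15 was called after DSCC1 siRNA (2 with an unadjusted p under 0.05, DESeq2 0) or after SEPHS1 siRNA (4 with an unadjusted p under 0.05, DESeq2 0). For DSCC1 siRNA, DESeq2 left 10 of the 15 without an adjusted p.

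**Figure D4:**
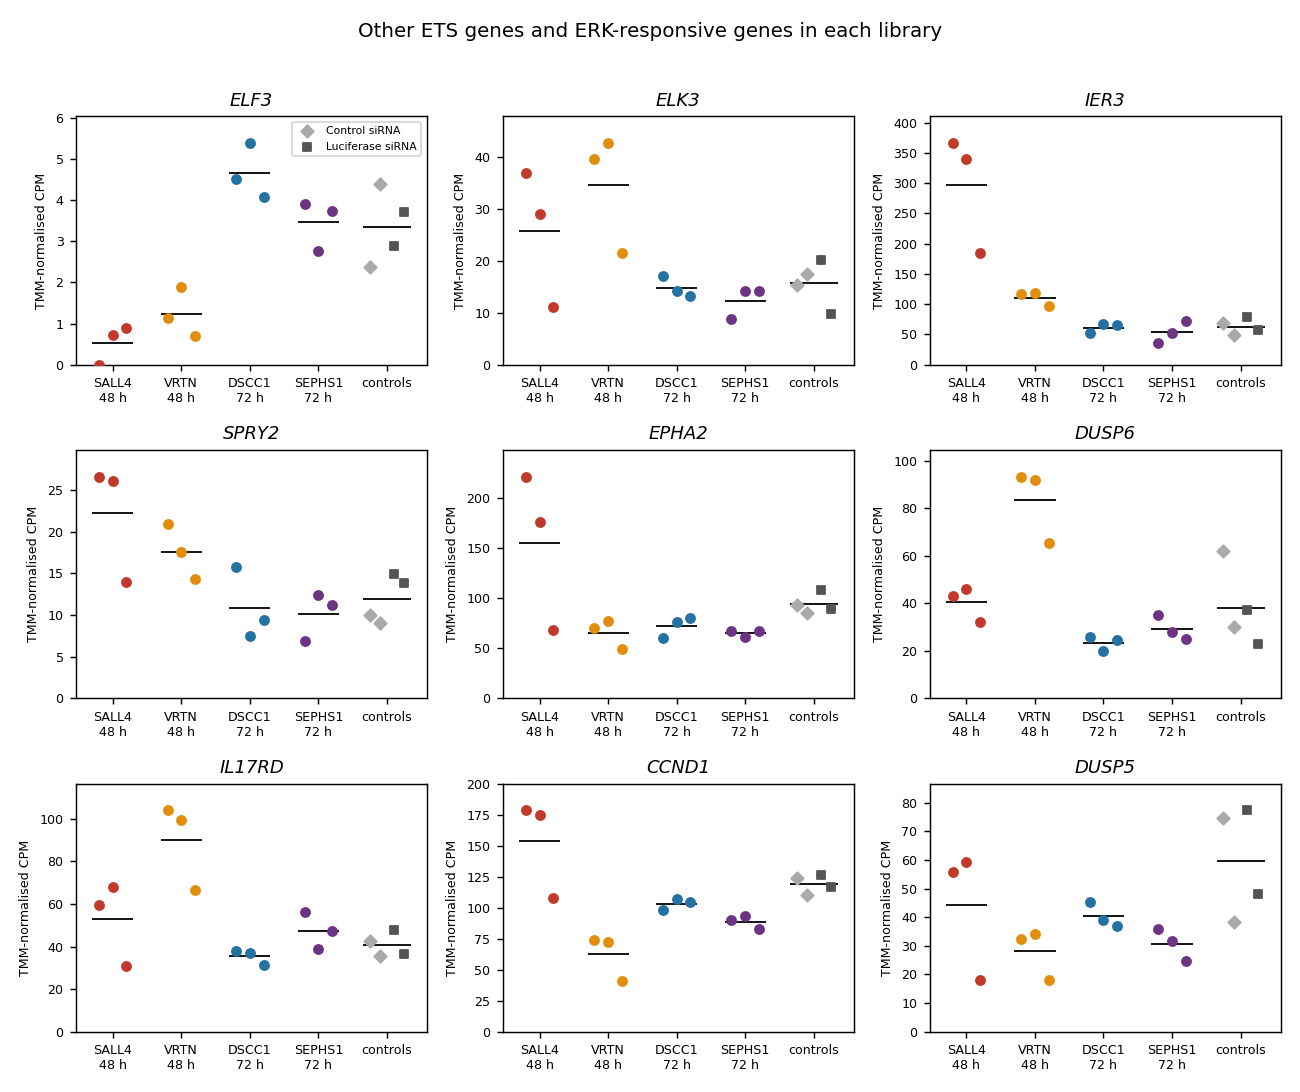
Levels in every library, in TMM-normalised CPM from 0, of the 9 called genes among the other ETS genes and the ERK feedback and early response lists; symbols as in the plot of the 9 ETS genes. IER3 is high in the SALL4 siRNA libraries, at 185 to 367 CPM, DUSP6 and IL17RD are high in the VRTN siRNA libraries, and in EPHA2 and SPRY2 SALL4 replicate 3 lies well below replicates 1 and 2.

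Early response genes (10 genes, driven by ELK1 and related factors with SRF) held 1 call after SALL4 siRNA and 1 after VRTN siRNA, the same gene, IER3. IER3 encodes a stress-response protein and lies at chr6:30743199-30744554 on the minus strand. It rose to 367, 340 and 185 CPM after SALL4 siRNA and to 116, 118 and 96.9 CPM after VRTN siRNA, against 68.1 and 48.4 CPM with Control siRNA and 78.1 and 56.8 CPM with Luciferase siRNA. All 6 libraries harvested at 48 h were above every control library and above the 72 h libraries, which ran from 35.5 to 71.9 CPM. The log2 fold change was 2.25 (SE 0.19, edgeR adjusted p = 1.71e-09) after SALL4 siRNA, and 2.51 (adjusted p = 5.89e-13) without SALL4 replicate 3. After VRTN siRNA it was 0.82 (SE 0.19, edgeR adjusted p = 0.0195), which DESeq2 did not call (adjusted p = 0.06) and which was lost without VRTN replicate 1 (0.0991) or VRTN replicate 2 (0.111). Without VRTN replicate 3 it was 0.90 (adjusted p = 0.0268). The SALL4 and VRTN comparisons share the 4 control libraries. With Luciferase or Control siRNA alone as the control, the calls of ELF3, SPRY2 and EPHA2 after SALL4 siRNA and of ELK3, DUSP5 and IER3 after VRTN siRNA were all lost (adjusted p = 0.0533 to 0.576). Against replicate 1 of the controls alone the calls of ELF3, SPRY2 and EPHA2 after SALL4 siRNA and of ELK3, DUSP6 and IER3 after VRTN siRNA were lost (0.128 to 0.381). Against replicate 2 alone those of SPRY2 and EPHA2 after SALL4 siRNA and of ELK3 and DUSP5 after VRTN siRNA were lost (0.0576 to 0.504). None of the 10 genes was called after DSCC1 siRNA (2 with an unadjusted p under 0.05, DESeq2 0) or after SEPHS1 siRNA (3 with an unadjusted p under 0.05, DESeq2 0). DESeq2 left 7 of the 10 without an adjusted p for DSCC1 siRNA and 1 for SEPHS1 siRNA.

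The genes whose levels most resembled those of a gene of the 9 were sought over the 16 libraries among 9836 or 9837 genes averaging at least 2 log2 CPM, by Pearson's r of log2 CPM. The 16 points share groups, depth and harvest times, and r is given as a description. It was done for the 4 genes with the widest range of group means. For ETS1, with a range of 2.59 on the log2 scale, they were PDZRN3 (r = 0.89), TTC9C (0.89) and RBMS2 (0.86). For ETV5, with a range of 0.85, they were LRRN2 (0.89), ADGRL2 (0.88) and SOGA1 (0.87). ELF1, with a range of 2.08, came closest to UBE2G1 (0.86), CCP110 (0.84) and LRP4 (0.81), and GABPA, with a range of 0.74, to DAPK3 (0.81), CDK6 (0.79) and RCAN3 (0.76). The values of ELF1 and GABPA rest on counts as low as 0 and 13.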

How the data were processed

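The authors deposited raw counts per gene for 16 libraries, made per the submitters' processing notes with STAR 2.4.0.1, HTSeq 0.9.1 and GRCh38. Per the labels' protocols, poly(A) RNA libraries (Lexogen SENSE) were sequenced as single-end reads of 80 bp. The annotation release, the strand setting and the treatment of reads with several matches are not given in the sources used here. The table holds whole numbers for 60675 identifiers, 33486 of them without a count. Symbols came from a gene name table, and positions and exon lengths from GENCODE 29.

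Here the genes were filtered with filterByExpr (19772 tested, 40903 left out), scaled by TMM and fitted with edgeR 4.0.16 in R 4.3.3, over 1 design of 6 groups (10 residual degrees of freedom, common dispersion 0.347). Each SE was obtained as the size of the log2 fold change over the root of its F statistic. The fit was also run on simulated counts with known changes. Their spread was set below the common dispersion found here, and they held no split between replicates. That run therefore cannot show how the test behaves on data as variable as these. Intervals and the floor of 3 counts cover counting error or replicate spread only. The main fit held no term for the replicate number. Samples with the same number deviated together in some pairs of groups and not in others. The correlation was 0.338 for Luciferase with Control and 0.363 for replicate 3 of SALL4 with VRTN, but -0.316 for replicate 2 of Luciferase with SALL4.

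The members and lists were chosen with earlier results of these data known. The text names all 9 genes, up to 4 called genes per list and comparison by smallest p, the most abundant gene of each list, the 4 targets, and the 3 genes most like each of 4 members. Alternatives were DESeq2 size factors, DESeq2 1.42.0, no filter on low counts, a replicate block, each control siRNA or each control replicate number alone, and leaving out each library in turn.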

Additional observations from a re-analysis of the deposited data

Results flagged for a closer look

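In 2 of the 9 genes, 1 of the 4 control libraries lay far from the other 3, past the critical value of Dixon's gap ratio. Chance alone flags about 1 in 20 such groups, and 9 were examined.

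ETS2 stood at 22.9 CPM in Luciferase replicate 1, against 30.1 to 31.0 CPM in the other 3 control libraries, a gap of 0.888 of their range. ETV5 stood at 12.9 CPM in Luciferase replicate 2, against 18.3 to 19.4 CPM in the other 3, a gap of 0.832 of their range.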

How the results depend on the processing

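Among the 9 genes the call of ETV4 after VRTN siRNA was lost without VRTN replicate 3 and was at the threshold against Control siRNA alone (adjusted p = 0.05), so the count of calls there was 0 to 1 over libraries left out. The counts of calls in the lists depended on the setting, and the cause was not tested. For the other ETS genes after SALL4 siRNA (1 call) the count was 2 with no filter, 2 with the replicate block, 0 against Luciferase alone, 0 against Control alone, 0 against replicate 1 of the controls, and 0 to 2 over libraries left out. After VRTN siRNA (1 call) it was 0 against Luciferase alone, Control alone, replicate 1 or replicate 2 of the controls, and 0 to 1 over libraries left out. For the 4 partner and target lists after SALL4 siRNA (3 calls) it was 9 with no filter, 9 with the replicate block, 1 against Luciferase alone, Control alone or replicate 1 of the controls, and 1 to 11 over libraries left out, the 11 without SALL4 replicate 3. After VRTN siRNA (5 calls) it was 3 against Luciferase alone, 2 against Control alone and 3 to 6 over libraries left out. After DSCC1 siRNA (0 calls) it was 4 with no filter, 1 against replicate 1 of the controls and 0 to 3 over libraries left out, and after SEPHS1 siRNA (0 calls) it was 6, 2 and 0 to 7, the 7 without Luciferase replicate 2. Samples with the same replicate number did not deviate together in every pair, with correlations from -0.316 to 0.363, and over all genes the block gave 820 calls after SALL4 siRNA (590 without it), 283 after VRTN siRNA (223), 15 after DSCC1 siRNA (9) and 270 after SEPHS1 siRNA (303). No direction of a called gene of the ETS family or the 4 lists reversed under any alternative run. Where a left-out library left a control group with 1 library, that library was assumed to vary like the others. Low counts limit the values of ELF1, GABPA and ELF3.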
